A study of Mus musculus with 6 samples.

Results

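Messenger RNA of 8 S100 calcium-binding protein genes (S100a1, S100a4, S100a6, S100a8, S100a9, S100a10, S100a11 and S100g) was counted in single cells of mouse kidney and mammary tumor. The genes were taken by symbol from the 31053 genes of the count matrices, which hold 9 other S100 genes as well. The study set a microfluidic tissue-processing platform against a conventional digest and asked how the cells that each released compared. Minced tissue in type I collagenase was either digested for 60 min as the control or loaded on the platform, whose cells were taken off in a 15 min and a 60 min interval, and live cells were sorted with SytoxBlue before droplet capture. The kidney groups were C57BL/6 mice aged 12 weeks and the tumor groups MMTV-PyMT mice, which carry a mammary oncogene, aged 10 weeks. Each tissue thus had a control 60 min library, a platform 15 min library and a platform 60 min library, 6 libraries in all. In the study's interval format the suspension is eluted, fresh enzyme is added and the remaining tissue is processed further. The platform 60 min library is therefore read as the cells released after the 15 min elution, and not as a separate run of that length, so neither platform library alone holds all cells that the platform released.

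The kidney libraries, in the order control, platform 15 min and platform 60 min, held 8233, 12082 and 13719 cells with 69691783, 116998401 and 112969440 unique molecular identifiers (UMIs), and the tumor libraries held 8177, 8198 and 8152 cells with 90414805, 101222030 and 97006183 UMIs. After limits on genes and mitochondrial share, 5886, 8390 and 9936 kidney cells and 5736, 5802 and 6024 tumor cells were kept, with medians of 5071, 6612 and 4583 and 8210.5, 9228 and 9476 UMIs per cell. The median mitochondrial share of kept kidney cells was 7.38, 20.4 and 8.59%, highest in the platform 15 min library, and that of tumor cells was 7.54, 6.95 and 6.55%. Identical barcodes occurred in pairs of libraries of a tissue: 53, 93 and 211 in the kidney pairs and 16, 20 and 21 in the tumor pairs, each in the order control with 15 min, control with 60 min and 15 with 60 min. They touched 62, 138 and 192 kept kidney cells and 27, 27 and 32 kept tumor cells. Every condition had 1 library, and those of a tissue are read as sharing an animal, so no difference could be tested against the spread between animals. Ranges in parentheses are exact 95% intervals (Poisson for levels, conditional binomial for ratios, Clopper-Pearson for shares) and cover counting error only. Orders of classes use values pooled over libraries, which weigh each library by its UMIs, and need not hold within each library. All lists of 3 values below keep the order control, platform 15 min and platform 60 min.

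S100 proteins are small EF-hand proteins, most of them dimers, that open a binding surface for other proteins when calcium rises. Some stay in the cell and act on the cytoskeleton, annexins or calcium pumps, while others are released and bind receptors on immune cells. Their transcripts are unevenly shared among cell types, so which cells a dissociation releases may bear on their level in a library, which was not tested.

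Cells were assigned to classes by marker genes, none of them an S100 gene. Each tissue had its own set of classes, so the classes are no check of the tissue labels. Proximal tubule cells made up 52.1%, 85.7% and 29.6% of kept kidney cells and luminal epithelial cells 54.6%, 64.5% and 37.4% of kept tumor cells, so the tubule share was highest in the platform 15 min kidney library and the luminal share lowest in the platform 60 min tumor library. Endothelial cells made up 9.46%, 4.31% and 24.3% in kidney and 5.54%, 4.4% and 13.1% in tumor, and macrophages 13.5%, 1.36% and 13.9% and 16%, 16% and 23.3%. Cells without a class made up 10.7%, 2.82% and 14.7% and 13.2%, 7.62% and 12%. A class is a range of marker detection and not a pure type: 450 of 13205 proximal tubule cells and 1551 of 9126 luminal cells sat at the limit, with 235 and 323 cells just outside it. The median cell had 6 of its own 6 markers in the proximal tubule class and 4 in the luminal class, and the highest median of another class's markers was 1 and 0. That other-class median reached 3 in tumor pericytes, for fibroblast markers, and 2 in monocytes of both tissues.

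In the mm10 build, 7 of the 8 genes lie on chromosome 3 and S100g on chromosome X. On the plus strand are S100a4 (ENSMUSG00000001020, 90603771 to 90606045), S100a6 (ENSMUSG00000001025, 90612882 to 90624181), S100a8 (ENSMUSG00000056054, 90668978 to 90670035), S100a11 (ENSMUSG00000027907, 93520488 to 93526287) and S100a10 (ENSMUSG00000041959, 93555080 to 93564643). On the minus strand are S100a1 (ENSMUSG00000044080, 90511034 to 90514392), S100a9 (ENSMUSG00000056071, 90692632 to 90695721) and S100g (ENSMUSG00000040808, 162961992 to 162964599). S100a4 overlaps Gm42674 on its own strand, so the assignment of reads to S100a4 carries that uncertainty. S100g overlaps Ctps2 on the opposite strand, which bears on its reads only where strand is not kept.

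In whole kidney libraries, most of the members were scarcer in the platform 15 min interval than in the control, and near the control in the 60 min interval. Levels are UMIs scaled to the total of the library or class (CPM). S100g stood at 749 (739 to 758), 64.7 (62.7 to 66.8) and 845 (837 to 853) CPM, S100a6 at 174 (169 to 178), 35.1 (33.6 to 36.6) and 226 (222 to 229.8) and S100a4 at 81.1 (78.1 to 84.2), 14.4 (13.5 to 15.4) and 77.4 (75 to 79.8). S100a8 stood at 84.9 (81.9 to 88.1), 18.9 (17.8 to 20.03) and 83.1 (80.6 to 85.6) and S100a9 at 117 (113 to 121), 22.6 (21.4 to 23.8) and 119.6 (117 to 123). These 5 genes were lowest in the platform 15 min library, and S100g had the widest gap. S100a10 stood at 277 (272 to 283), 162 (159 to 166) and 351 (346 to 357), S100a11 at 195 (191 to 200.02), 115 (113 to 118) and 198 (194 to 202) and S100a1 at 306 (299.8 to 312), 283 (279 to 287) and 234 (229 to 238) CPM. For S100a10 and S100a11 the gap at 15 min was narrower, and S100a1 was lowest in the platform 60 min library.

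At 15 min in kidney, 7 of 8 members were at or past 1.5-fold, all of them lower, where 48.3% of all 14632 genes tested were past it (42.4% lower and 5.89% higher). S100g fell to a platform over control ratio of 0.0865 (0.0836 to 0.0894), S100a4 to 0.178 (0.165 to 0.192), S100a9 to 0.194 (0.182 to 0.206), S100a6 to 0.202 (0.192 to 0.212) and S100a8 to 0.223 (0.208 to 0.238). S100a10 at 0.585 (0.569 to 0.602) and S100a11 at 0.591 (0.571 to 0.611) fell less, and S100a1 at 0.926 (0.903 to 0.949) stayed inside the limit. The median gene itself fell by 0.36 on the log2 scale. Relative to it, the ratios of S100g, S100a4, S100a9, S100a6 and S100a8 were 0.111, 0.229, 0.249, 0.26 and 0.286, while S100a10 at 0.752 and S100a11 at 0.758 were no longer past the limit and S100a1 stood at 1.19. With that scaling the higher share of all genes past 1.5-fold moved from 12.2% to 33.7%.

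In the platform 60 min interval, 0 of 8 kidney members were at or past 1.5-fold, where 31.3% of all 15515 genes tested were. S100a6 at 1.3 (1.26 to 1.34), S100a10 at 1.27 (1.24 to 1.3) and S100g at 1.13 (1.11 to 1.15), or 0.96 with thinning, were the highest ratios, and S100a1 at 0.764 (0.744 to 0.785) the lowest. S100a4, S100a8, S100a9 and S100a11 lay between 0.954 and 1.02. The median gene rose by 0.20 on the log2 scale. Relative to it, S100a1 at 0.664 was past the limit and lower, S100g was at 0.982, and the higher share of all genes past 1.5-fold moved from 81.3% to 57.8%.

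In whole tumor libraries the pair S100a8 and S100a9, and the sparse S100g, were highest in the control. S100a8 stood at 763 (755 to 770.5), 345 (339.6 to 349) and 155 (152 to 158) CPM, S100a9 at 1128 (1119 to 1137), 403 (398 to 409) and 214 (211 to 218) and S100g at 7.66 (6.92 to 8.46), 3.21 (2.75 to 3.72) and 2.28 (1.9 to 2.7). S100a4 stood at 124 (121 to 127), 67.5 (65.4 to 69.8) and 101 (98.2 to 103), S100a10 at 412 (406 to 418), 282 (278 to 287) and 398 (392 to 403) and S100a6 at 946 (937 to 954), 807 (799 to 814) and 956 (948 to 964), each lowest in the platform 15 min library. S100a11 at 732 (725 to 739.7), 718 (711 to 725) and 622 (615 to 628) and S100a1 at 226 (222 to 229.8), 243 (239 to 248) and 154 (151 to 157) were lowest in the platform 60 min library.

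At 15 min in tumor, 4 of 8 members were at or past 1.5-fold, all lower, where 23.1% of all 15588 genes tested were, 7.82% lower and 15.3% higher. The ratios were 0.357 (0.352 to 0.363) for S100a9, 0.419 (0.349 to 0.502) for S100g, 0.452 (0.444 to 0.46) for S100a8 and 0.543 (0.522 to 0.566) for S100a4. S100a10 at 0.685 (0.671 to 0.70) was just inside the limit. With each cell thinned to 1000 UMIs, S100a4 was at 0.752 and inside it as well. The median gene rose by 0.21 on the log2 scale. Relative to it, S100a9 was at 0.308, S100g at 0.361, S100a8 at 0.389, S100a4 at 0.469 and S100a10, now past the limit, at 0.591. The higher share of all genes past 1.5-fold moved from 66.2% to 36.5% with that scaling. At 60 min, 3 of 8 tumor members were past the limit and lower, where 23.2% of 15719 genes were: S100a9 at 0.19 (0.186 to 0.194), S100a8 at 0.203 (0.198 to 0.208) and S100g at 0.297 (0.242 to 0.363). S100a1 at 0.683 (0.664 to 0.702) was next, and S100a4, S100a6, S100a10 and S100a11 lay between 0.811 and 1.01. A smaller number of cells of a type and less RNA in each cell cannot be told apart in library sums, so levels within classes follow for each gene.

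**Figure D1:**
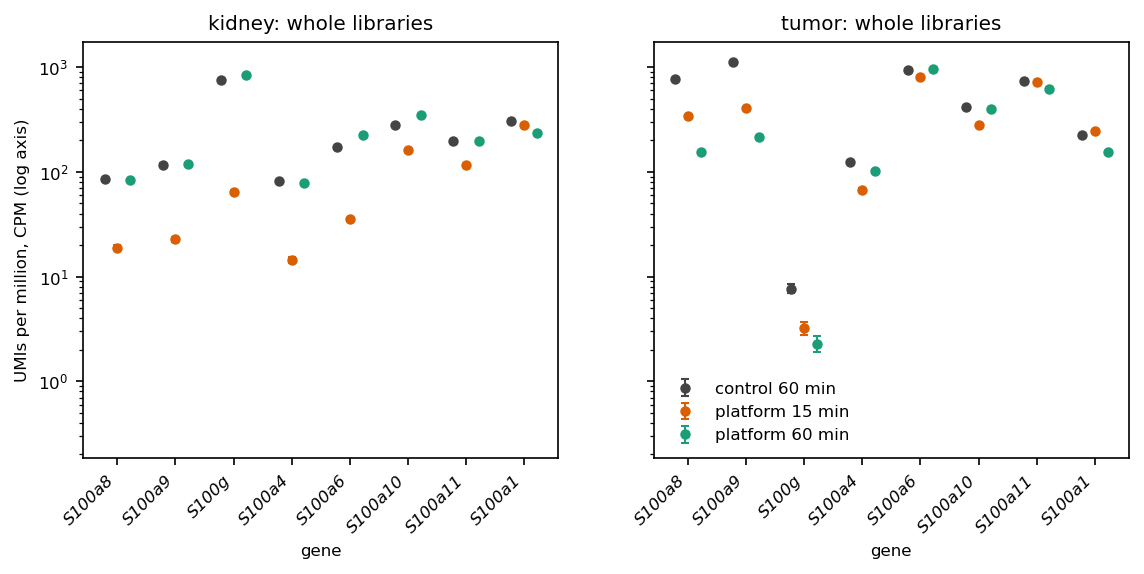
Level of each S100 gene in whole libraries of kidney and tumor, in CPM on a log axis, with 1 point per library and bars for the exact Poisson 95% interval. In kidney S100g drops from 749 in the control to 64.7 in the platform 15 min library, and in tumor S100a9 drops from 1128 in the control to 214 in the platform 60 min library.

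S100a8 and S100a9 encode the subunits of calprotectin, which neutrophils hold in their cytosol and release to bind metal ions and inflammatory receptors, and both transcripts lay chiefly in the granulocyte class. That class had 36, 9 and 38 kidney cells (0.612%, 0.107% and 0.382%) and 209, 68 and 49 tumor cells (3.64%, 1.17% and 0.813%), so its share was lowest in the platform 15 min kidney library and fell from control to 15 to 60 min in tumor. Of these cells, 15 in kidney and 119 in tumor sat at the limit of the class. Pooled over libraries, granulocytes held 39284 (38381 to 40203) CPM of S100a8 and 53146 (52095 to 54213) of S100a9 in kidney, and 67471 (66898 to 68049) and 98803 (98108 to 99501) in tumor. In kidney proximal tubule cells S100a8 was at 1.16 (0.955 to 1.4) CPM and in tumor fibroblasts at 3.61 (2.02 to 5.95).

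An S100a8 UMI was seen in 98.8% (96.2% thinned) of kidney granulocytes, which had a median of 2168 UMIs, against 0.114% (0.0466% thinned) of proximal tubule cells at a median of 6654. In tumor the shares were 97.2% (95.6% thinned) of granulocytes at a median of 1992 and 3.22% (0.512% thinned) of fibroblasts at 10505. S100a9 was seen in 97.6% (97.5% thinned) of kidney granulocytes and 0.22% (0.0855% thinned) of proximal tubule cells, and in 98.5% of tumor granulocytes and 3.96% of fibroblasts. Although granulocytes were the shallower cells, both transcripts were far above the classes that should lack them.

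Within granulocytes the levels did not follow the drop of the library sums at 15 min, and at 60 min in tumor they were lowest together with those sums but fell by less. S100a8 was at 32767 (31484 to 34089), 55579.6 (52423 to 58877) and 40997 (39663 to 42363) CPM in kidney granulocytes, of which the platform 15 min library had only 9, and at 65055 (64352 to 65763), 85399.7 (84015 to 86801) and 51054 (49735 to 52399) in tumor granulocytes. S100a9 was at 43747, 66436 and 58054 and 97867, 107729 and 89418 CPM in the same classes. Both genes were highest in the platform 15 min library in each tissue, where their library sums were below the control. Granulocytes gave 85.9%, 99.6% and 82.2% of S100a8 UMIs in kidney and 84.7%, 76.8% and 63.3% in tumor, and 83.4%, 99.6% and 80.9% and 86.2%, 82.7% and 80.1% of S100a9 UMIs. The summed granulocyte markers of whole tumor libraries stood at 294, 231 and 159 CPM (6 of 6 markers seen in each library, most abundant G0s2) and those of kidney at 93.7, 55.6 and 89.2 CPM (6 of 6 markers seen in each library, most abundant G0s2). Pooled over libraries, more of these marker UMIs were in tumor luminal cells (18034) than in tumor granulocytes (11894). In kidney, more were in proximal tubule cells (5942) than in granulocytes (2703), so the sums do not measure granulocytes alone. The sums moved in the direction of S100a8 and S100a9 in tumor and in the platform 15 min kidney library, and their part in the change was not tested.

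The share of S100a8 among the UMIs of both genes was 42.5% (41.8 to 43.3) in kidney granulocytes and 40.6% (40.3 to 40.8) in tumor granulocytes. The interval of tumor endothelial cells, at 38.8% (31.9 to 46), held the granulocyte ratio, while macrophages were above it at 46.9% (42.7 to 51) and T lymphocytes below it at 28.9% (20.1 to 39). Tumor luminal cells were far above it at 76.1% (75.1 to 77). So were monocytes at 78.1% (66.9 to 86.9), a share that rests on few cells, with 59.6% of 57 S100a8 UMIs in 2 of 133 cells. The intervals of all these classes treat UMIs as independent. Where a few cells hold many of the UMIs, as for S100a9 in endothelial cells below, the intervals are too narrow. The shares of endothelial cells, macrophages and T lymphocytes were not repeated without such cells. In a comparison chosen after the values were seen, luminal cells without a UMI of any granulocyte marker had S100a8 at 62.9, 57.3 and 71.9 CPM and S100a9 at 17.2, 4.71 and 0.77 CPM. Their S100a8 share was 78.5% (76.3 to 80.6), 92.4% (90.6 to 93.9) and 98.9% (98 to 99.5), from 1166, 961 and 840 S100a8 and 319, 79 and 9 S100a9 UMIs. Few luminal cells held much of either gene: of all luminal cells, 92 of 9126 had 44.4% of S100a8 UMIs, and as many had 72.6% of S100a9 UMIs. Among those without a granulocyte marker UMI the S100a8 share was 77.4% (75.2 to 79.6), 93.9% (92 to 95.4) and 99% (98.1 to 99.6) without the cell of most UMIs of each gene, and 68.2% (65.2 to 71.1), 89.4% (86.4 to 92) and 98% (96.3 to 99.1) without the 20, 18 and 20 cells of at least 10 UMIs of either, both choices made after seeing the data. S100a8 without a matching amount of S100a9 was thus present in this luminal class in every library. The cells without a granulocyte marker UMI were 1951 of 3132, 1824 of 3743 and 1236 of 2251 luminal cells. Among them the excess over the granulocyte ratio was widest in the platform 60 min library. Over all luminal cells, given next, S100a9 was instead lowest in the platform 15 min library, so that order is stated for the chosen cells only.

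Over all luminal cells S100a8 was at 65.5 (62.6 to 68.5), 52.6 (50.3 to 55) and 85 (81.3 to 88.9) CPM and S100a9 at 27.9 (26 to 29.8), 14 (12.9 to 15.3) and 21.3 (19.5 to 23.3), and 20.7% (4.33% thinned) of luminal cells had an S100a8 UMI at a median of 9612 UMIs. The luminal S100a8 ratio to control was 0.803 (0.754 to 0.855) at 15 min and 1.3 (1.22 to 1.38) at 60 min, inside the limit, and with each cell thinned to 1000 UMIs it was 0.705 and 0.973. S100a9 was at 0.503 (0.451 to 0.561) and 0.766 (0.683 to 0.857). Its 60 min value was past the limit with thinning, at 0.528, and without the cell of most UMIs in each library, at 0.525 (0.454 to 0.606). The granulocyte marker list within luminal cells summed to 135, 228 and 228 CPM (6 of 6 markers seen in each library, most abundant G0s2), and its part was not tested. Of the 18034 marker UMIs in luminal cells, 44 were of Retnlg. Tumor cells without a class held S100a8 at 938, 915 and 252 CPM and S100a9 at 1722, 1284 and 373, lowest in the platform 60 min library for both.

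**Figure D2:**
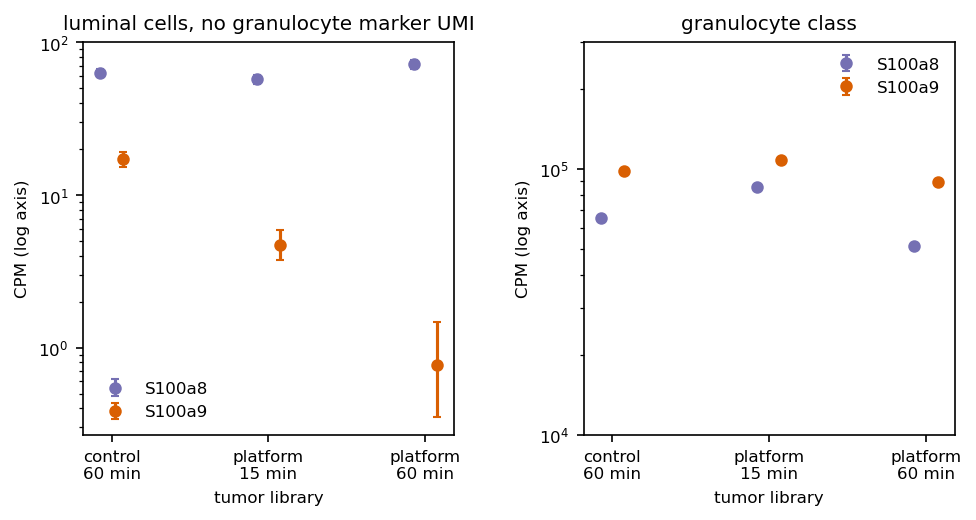
S100a8 and S100a9 by tumor library, in CPM on a log axis, in luminal cells without a granulocyte marker UMI (left) and in the granulocyte class (right). In the luminal cells S100a9 drops from 17.2 in the control to 0.77 in the platform 60 min library while S100a8 stays between 57.3 and 71.9.

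Outside granulocytes and luminal cells, S100a8 and S100a9 were lower on the platform in each tumor class with enough cells. In macrophages S100a8 was at 16.5, 3.8 and 3.37 CPM and S100a9 at 22.2, 3.01 and 2.29, with ratios of 0.229 (0.154 to 0.332) and 0.136 (0.0876 to 0.202) at 15 min and 0.204 (0.148 to 0.277) and 0.103 (0.0711 to 0.145) at 60 min. In endothelial cells the S100a8 ratios were 0.414 (0.214 to 0.768) and 0.195 (0.112 to 0.335) and the S100a9 ratios 0.113 (0.0396 to 0.265) and 0.375 (0.255 to 0.556). Without the cell of most UMIs in each library, the endothelial S100a9 ratios were 0.0592 (0.0118 to 0.184) and 0.0829 (0.0421 to 0.153), and S100a8 at 60 min was at 0.129. In T lymphocytes S100a9 had 49, 18 and 2 UMIs and S100a8 20, 5 and 3, again most in the control, but the S100a8 ratio at 15 min turned to 1.17 when the upper limits were lifted. Granulocyte markers within macrophages summed to 116, 41.5 and 64.2 CPM (6 of 6 markers seen in each library, most abundant Il1r2, Csf3r and Csf3r by library) and within endothelial cells to 3.4, 5.65 and 11 CPM (2 of 6, 2 of 6 and 6 of 6 markers seen, most abundant Retnlg, G0s2 and G0s2 by library, at 0 Csf3r, Mmp9, Cxcr2, Il1r2 in the control library and Csf3r, Mmp9, Cxcr2, Il1r2 in the 15 min library). They fell with the S100 genes in macrophages and rose in endothelial cells, and their part was not tested. In kidney, 96 of 100 S100a8 UMIs of control proximal tubule cells and 118 of 127 S100a9 UMIs came from 1 cell that held 4 granulocyte markers, so the proximal tubule ratios of both genes rest on that cell. Without the cell of most UMIs in each library, the platform 60 min ratio of S100a9 turned from 0.111 (0.0592 to 0.194) to 1.46 (0.578 to 3.87), and the S100a8 counts left were too few for a ratio.

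The promoters of S100a8 and S100a9 are given because these genes had the highest class levels of the set and granulocyte genes are often bound by C/EBP factors. Each window runs from 250 bases before the annotated start to 50 after it (GRCm38.p6, RefSeq), read on the gene's own strand, with TATAAA on that strand and the C/EBP-type motif TTGCNNAA on either strand in capitals. S100a8 lies at chr3:90668821-90669120 on the plus strand, with TATAAA from base 221. S100a9 lies at chr3:90695672-90695971 on the minus strand, with TATAAA from base 251 and TTGCNNAA from base 15.
S100a8: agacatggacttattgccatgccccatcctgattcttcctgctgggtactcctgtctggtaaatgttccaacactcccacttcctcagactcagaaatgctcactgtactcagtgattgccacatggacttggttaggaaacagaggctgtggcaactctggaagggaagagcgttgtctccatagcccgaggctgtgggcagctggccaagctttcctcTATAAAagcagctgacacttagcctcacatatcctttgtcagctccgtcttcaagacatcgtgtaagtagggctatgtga
S100a9: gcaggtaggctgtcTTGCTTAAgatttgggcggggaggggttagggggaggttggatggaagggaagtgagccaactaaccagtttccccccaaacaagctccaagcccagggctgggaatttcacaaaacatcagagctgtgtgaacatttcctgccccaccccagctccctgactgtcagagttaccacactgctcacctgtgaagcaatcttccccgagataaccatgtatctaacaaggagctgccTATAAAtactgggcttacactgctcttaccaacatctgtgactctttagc
Of the 7 members with an entry, 4 held TATAAA (S100a4, S100a8, S100a9 and S100g) and 2 held TTGCNNAA (S100a9 and S100g), where 8.32% and 10.8% of all 32851 promoters did. S100a10 had no entry. The matches describe sequence and were not tested for binding.

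S100g encodes the small calbindin that ferries calcium across distal nephron cells, and its kidney level was highest in the distal classes. Of its kidney UMIs, 17432 were in distal tubule cells, 12940 in principal cells and 32123 in cells without a class. Pooled levels were 18382 (18110.1 to 18657) CPM in the distal convoluted and connecting tubule, 15134 (14874 to 15397) in collecting duct principal cells and 854 (778 to 936) in intercalated cells, then 216 (196 to 239) in the thick ascending limb and 202 (194 to 209.6) in endothelial cells. Proximal tubule cells were at 61.9 (60.3 to 63.5) and T lymphocytes at 87.3 (77.9 to 97.4). The first 3 of these levels were apart, and thick ascending limb and endothelial cells overlapped. Few cells carried these last 2 values, with 41% of 398 UMIs in 5 of 416 cells in the thick ascending limb and 69.1% of 2705 UMIs in 34 of 3334 cells among endothelial cells. Stromal cells are not placed, because 58 of their 66 S100g UMIs were in 1 of 36 cells. S100g was seen in 69.4% (56.9% thinned) of distal cells (median 3520 UMIs) and 62.5% (59.9% thinned) of principal cells (median 4306), against 16.9% (4.07% thinned) of T lymphocytes (median 5206), which should lack it. The shares in proximal tubule cells, 18.2% (4.13% thinned), and macrophages, 20.03% (4.37% thinned), were near that of T lymphocytes. These UMIs were not spread evenly over cells, with 52.7% of 5859 UMIs in 133 of 13205 cells of the proximal tubule, up to 404 in 1 cell, and 31.9% of 793 UMIs in 23 of 2292 cells of the macrophages. Their source was not tested.

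Within the distal convoluted and connecting tubule class S100g fell by far less than its library sum at 15 min. It was at 15235 (14762 to 15719), 13237 (12569 to 13932) and 20769 (20399.6 to 21143) CPM over 66, 22 and 141 cells, and in principal cells at 14256 (13859 to 14661), 19132 (16211 to 22426) and 15668 (15324 to 16017) over 75, 6 and 103 cells. At 15 min the distal level was 13237 against 15235 in the control, whereas the library sum was 11.6-fold lower, and the captured cells of both classes were few. Their marker lists in whole kidney libraries summed to 656, 117 and 980.4 CPM (6 of 6 markers seen in each library, most abundant Klk1) and 167, 27.9 and 138 CPM (6 of 6 markers seen in each library, most abundant Aqp2, Aqp3 and Aqp2 by library), lowest where S100g was lowest, and their part was not tested. Among cells thinned to 1000 UMIs, distal cells with a UMI of Calb1, a marker of that class, had a mean of 27.5 S100g UMIs (142 cells, median 21.5) and those without 1.95 (62 cells, median 0). In principal cells the means were 17.6 with Calb1 and 5.08 without. Other markers of these classes split the cells the other way: distal cells with Slc12a3 had a mean of 13.7 (142 cells, median 1) against 33.5 without (62 cells, median 23.5), and principal cells with Aqp2 13.6 (160 cells) against 30.8 without (12 cells).

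Cells without a class held 51.4%, 22.5% and 41.3% of the S100g UMIs of each kidney library, at 4721, 795 and 2672 CPM. Over the libraries, 26.3% of these UMIs were in 51 cells that carried markers of both distal classes, and 16.8% in 82 cells with markers of distal tubule and thick ascending limb. A further 14.1% was in 48 cells with markers of distal tubule and proximal tubule, and 7.99% in 18 cells with markers of principal cells and proximal tubule. Much of the unassigned S100g was therefore in cells with distal markers that the lead over other classes kept out. Whether doublets were among them was not tested.

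In classes outside the distal nephron, S100g moved with its library sum at 15 min. It was at 123, 25.1 and 108 CPM in proximal tubule cells, 107, 13.1 and 251 in endothelial cells, 32.3, 3.29 and 73.8 in macrophages, 49.9, 5.03 and 75.6 in B lymphocytes and 158, 1.71 and 81.9 in T lymphocytes. All 5 classes were lowest in the platform 15 min library, with ratios of 0.203 (0.19 to 0.217), 0.123 (0.0717 to 0.199), 0.102 (0.0122 to 0.373), 0.101 (0.0265 to 0.274) and 0.0109 (0.000273 to 0.0615). The T lymphocyte ratio compares 1 UMI with 138, of which 98 came from 1 control cell. At 60 min the ratios were 2.35 (2.06 to 2.69) in endothelial cells, turning to 0.698 without upper limits on genes and mitochondrial share, 2.29 (1.93 to 2.72) in macrophages and 1.52 (1.1 to 2.11) in B lymphocytes, and 0.519 (0.413 to 0.654) in T lymphocytes. Without the cell of most S100g UMIs in each library, the last became 1.23 (0.851 to 1.8) and that of B lymphocytes 1.49 (1.05 to 2.13), or 1.04 with thinning. Markers of the distal tubule summed to 139.7, 25.6 and 254 CPM (5 of 6, 5 of 6 and 6 of 6 markers seen, most abundant Klk1, at 0 Trpm6 in the control library and Trpm6 in the 15 min library) within endothelial cells, 26.6, 16.4 and 85.6 CPM (6 of 6, 4 of 6 and 5 of 6 markers seen, most abundant Klk1, at 0 Pvalb, Trpm6 in the 15 min library and Trpm6 in the 60 min library) within macrophages, 35.8, 6.29 and 84.8 CPM (4 of 6, 3 of 6 and 6 of 6 markers seen, most abundant Klk1, at 0 Pvalb, Trpm6 in the control library and Calb1, Trpm6, Klhl3 in the 15 min library) within B lymphocytes and 85.7, 8.56 and 158 CPM (5 of 6, 2 of 6 and 6 of 6 markers seen, most abundant Klk1, Klhl3 and Klk1 by library, at 0 Trpm6 in the control library and Slc12a3, Calb1, Pvalb, Trpm6 in the 15 min library) within T lymphocytes. They were lowest at 15 min with S100g in each of these classes. In proximal tubule cells Calb1, one of these markers, was lower at 15 min as well. The part of these markers was not tested.

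Other genes of transcellular calcium transport (Calb1, Trpv5, Trpv6, Slc8a1, Atp2b1, Atp2b4 and Vdr) followed S100g in whole kidney libraries at 15 min. There, 5 of 6 tested were lower and 0 higher, where 42.4% of all genes were lower and 5.89% higher, with a median ratio of 0.159 against 0.749 for all genes, and at 60 min 1 was higher (Atp2b4) and 0 lower of 6, where 5.84% of all genes were lower and 25.4% higher, with medians of 1.31 and 1.18. Calb1 itself stood at 121, 13.6 and 155 CPM. In tumor 1 of 5 was lower (Atp2b4) and 0 higher at 15 min, where 7.82% of all genes were lower and 15.3% higher. At 60 min 1 of 5 was higher (Slc8a1) and 0 lower, where 7.98% of all genes were lower and 15.2% higher, with medians of 1.15 and 0.953 beside 1.16 and 1.0. In tumor, S100g was rare and 99.4% of its UMIs lay in luminal cells: 388 UMIs in 20 control cells, 174 in 16 cells at 15 min and 130 in 5 cells at 60 min. The cell with the most held 187, 53 and 113 of them. Without that cell in each library, the whole-library ratios were 0.565 (0.448 to 0.711) and 0.0825 (0.0487 to 0.132) in place of 0.419 and 0.297, so S100g in tumor is a matter of a few cells.

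S100a4, a regulator of myosin and cell movement often used to label fibroblasts, was highest in monocytes of both tissues. In kidney, monocytes had 2632 (2472 to 2799) CPM over 41 cells, T lymphocytes 521 (498 to 545), NK cells 433 (386 to 484) and dendritic cells 169 (145 to 196), each above the next when pooled. In tumor the order was monocytes at 2224 (2144 to 2306), T lymphocytes at 530.2 (510.5 to 551), NK cells at 302 (253 to 358) and fibroblasts at 82.2 (73.7 to 91.4), with macrophages at 74.7 (71.9 to 77.6). The fibroblast value is weighted to the platform 60 min library, which had 295 of 404 fibroblasts. By library, fibroblasts were at 258 (211 to 313), 138 (109.6 to 173) and 49.9 (42.4 to 58.3) CPM and macrophages at 104 (97.6 to 109.8), 78.4 (72.7 to 84.4) and 54.1 (50.6 to 57.7), so the intervals overlapped in the platform 60 min library alone. S100a4 was seen in 95.1% (85.4% thinned) of kidney monocytes (median 9862 UMIs) against 0.424% (0.117% thinned) of proximal tubule cells (median 6654). Among granulocytes it was at 0 UMIs in kidney and 6.37 (2.07 to 14.9) CPM in tumor, which sets this gene apart from S100a8 and S100a9.

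By library, S100a4 in monocytes was at 3528, 2562 and 1989.6 CPM in kidney and 2573, 2306 and 1776 in tumor, over 15, 4 and 22 and 48, 38 and 47 cells. It was lower on the platform at both times and lowest at 60 min in each tissue, with few cells behind it. In T lymphocytes it was at 574, 569.9 and 487 in kidney, near level, and at 434, 510.3 and 674 in tumor, where the ratio at 60 min was 1.55 (1.42 to 1.7). NK markers within those tumor T lymphocytes summed to 325, 402 and 126 CPM (6 of 6 markers seen in each library, most abundant Gzma, Gzma and Ncr1 by library), and their part was not tested. The low kidney level of S100a4 at 15 min came with 4 monocytes and 106 T lymphocytes in that library. Cells without a class held 44.2%, 37.2% and 44.4% of its kidney UMIs and 40.9%, 32.9% and 42.7% of its tumor UMIs. In proximal tubule cells S100a4 had 22, 14 and 84 UMIs, with ratios of 0.219 (0.104 to 0.448) and 3.86 (2.39 to 6.49), in a class read as lacking it.

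S100a6, calcyclin, which binds cytoskeletal and ubiquitin-ligase proteins in dividing and mesenchymal cells, had different leading classes in the tissues. In kidney it was highest in granulocytes at 5340.3 (5011 to 5686) CPM and monocytes at 3288 (3109 to 3474), followed by stromal cells at 1168 (1028 to 1322), T lymphocytes at 1032 (999 to 1065) and NK cells at 971 (899 to 1046), whose intervals overlapped in sequence, and endothelial cells at 415 (404 to 426). Proximal tubule cells were at 2.78 (2.45 to 3.14). In tumor it was highest in pericytes, pooled at 4092 (3955 to 4234), and fibroblasts at 3639.7 (3582 to 3698), whose order turned by library (pericytes 3936, 3304 and 4439.7, fibroblasts 4598, 5006 and 3274), then granulocytes at 3159.6 (3036 to 3287) and monocytes at 2497 (2412 to 2584), whose order turned in the platform 60 min library (granulocytes 3292, 3698 and 1742, monocytes 2659, 2745 and 2131), with luminal cells at 929.7 (923 to 936) and macrophages at 113 (109.99 to 117). S100a6 was seen in 99.1% (84.2% thinned) of pericytes at a median of 6783 UMIs and in 1.02% (0.264% thinned) of kidney proximal tubule cells at 6654. Mesenchymal classes led in tumor, whereas myeloid classes led in kidney, where stromal cells numbered only 36.

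By library, S100a6 was at 4598 (4391 to 4812), 5006 (4824 to 5193) and 3274 (3212 to 3338) CPM in tumor fibroblasts, lowest in the platform 60 min library, which had 295 of the 404 fibroblasts. Luminal cells were at 1021, 792 and 1041, lowest at 15 min as in the library sum. In macrophages S100a6 was at 152 (145 to 159), 128 (121 to 136) and 80.7 (76.4 to 85.1) in tumor and 94 (86 to 103), 49.3 (33.3 to 70.4) and 49.1 (44.4 to 54.1) in kidney, lower on the platform in each. The kidney ratios were 0.525 (0.35 to 0.759) and 0.522 (0.457 to 0.596). In B lymphocytes the kidney level was 43.3, 91.8 and 28.4 CPM, where 39 of 73 UMIs at 15 min came from 1 cell, and without the cell of most UMIs the ratios were 1.47 (0.875 to 2.47) and 0.872 (0.55 to 1.41). Proximal tubule cells had 64, 25 and 174 UMIs, up to 35 in 1 cell, and 4 of 13205 cells had at least 10. Their source was not tested.

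S100a10, which does not bind calcium and tethers annexin A2 at membranes, was highest in NK cells and monocytes. In kidney, NK cells at 1074 (999 to 1153) CPM, monocytes at 1074 (973 to 1182) and endothelial cells at 972 (956 to 989) overlapped in sequence, T lymphocytes followed at 849.8 (820.04 to 880.4), and granulocytes at 27.3 (8.87 to 63.8) and macrophages at 33.9 (31 to 37.1) were lowest. In tumor, NK cells at 1395 (1287 to 1509) and monocytes at 1366 (1303 to 1430.3) overlapped and led T lymphocytes at 1034 (1007 to 1063), with granulocytes at 26.8 (16.6 to 40.9) last. Fibroblasts, pooled at 771 (745 to 798) with most cells from the platform 60 min library, were at 1012, 1353 and 636 by library, above T lymphocytes (912, 971 and 1248) in the platform 15 min library and below them in the platform 60 min library. The granulocytes that led for S100a8 thus had little S100a10. It was seen in 91.5% (59% thinned) of kidney NK cells (median 3986 UMIs) against 6.02% (2.5% thinned) of granulocytes (median 2168).

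By library, S100a10 in kidney endothelial cells was at 1156 (1112 to 1200.4), 820.3 (773 to 869.7) and 950.1 (931 to 969.6) CPM and in proximal tubule cells at 173 (167 to 179), 126 (123 to 129) and 138 (133 to 144), inside 1.5-fold of the control in both. In tumor luminal cells it was at 363 (356 to 369), 226 (222 to 231) and 279 (272 to 286), lowest at 15 min with a ratio of 0.624 (0.607 to 0.642), or 0.676 with each cell thinned to 1000 UMIs. Tumor macrophages were at 269.97 (260.2 to 279.97), 144 (137 to 152) and 145 (139.7 to 151), lower on the platform at both times.

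The annexin and scaffold partners (Anxa1, Anxa2, Anxa4, Anxa5, Anxa6, Anxa11 and Ahnak) followed the S100 genes in whole kidney libraries at 15 min. There 6 of 7 were lower, all but Anxa11, beside 42.4% of all genes, with a median ratio of 0.32 against 0.749 for all genes. At 60 min 2 were higher (Anxa2 and Ahnak) and 0 lower, where 5.84% of all genes were lower and 25.4% higher, with a median of 1.31 against 1.18. In whole tumor libraries none of 7 was past 1.5-fold at either time, where 23.1% and 23.2% of all genes were, with medians of 0.932 and 0.935 against 1.16 and 1.0. Within tumor macrophages, where S100a10 fell, 4 of 7 were lower at 15 min and 4 of 7 at 60 min, beside 8.53% and 8.41% of all genes in that class, with medians of 0.643 and 0.632 against 1.2 and 1.01. This was not so in luminal cells at 15 min, where S100a10 was lower as well but 1 of 7 partners was (Anxa1), beside 6.42% of all genes, at a median of 1.05 against 1.15. In kidney macrophages at 15 min S100a10 was lower too, but inside the limit with thinning, at 0.866. There 3 of 7 partners were lower (Anxa1, Anxa2 and Ahnak) and 1 higher (Anxa4), where 15.2% of all genes were lower and 18.9% higher.

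S100a11, a partner of annexin A1, was highest in granulocytes of both tissues. Kidney granulocytes had 4843 (4529 to 5173) CPM, intercalated cells 929 (849 to 1014), monocytes 672 (592 to 759) and dendritic cells 599 (553 to 647), the last 2 overlapping, with proximal tubule cells at 105 (102 to 107) and macrophages at 60.1 (56.1 to 64.2). Tumor granulocytes had 4056 (3916 to 4199), pericytes 1856 (1764 to 1952) and dendritic cells 1337 (1265 to 1412), with luminal cells at 794 (788 to 800.02) and macrophages at 183 (178 to 187). In both tissues granulocytes led by a wide margin, and macrophages were at the low end. S100a11 was seen in 97.6% (93.8% thinned) of kidney granulocytes (median 2168 UMIs) and 24.3% (4.9% thinned) of macrophages (median 6273). Within granulocytes it was at 4323, 6293 and 4944 CPM in kidney and 4138, 4145 and 3547 in tumor, lowest in tumor at 60 min but by a narrower margin than the tumor granulocyte share. In macrophages it was at 76.9, 57.5 and 49.4 and 234, 196 and 142, lowest at 60 min, with ratios there of 0.643 (0.56 to 0.739) and 0.608 (0.575 to 0.643), or 0.728 and 0.683 with thinning, inside the limit.

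S100a1, a regulator of calcium pumps and release channels best known from muscle, was highest in epithelial classes of both tissues. Kidney intercalated cells had 1747 (1637 to 1863) CPM, distal convoluted and connecting tubule cells 1312 (1239.9 to 1387), principal cells 825 (765 to 888), thick ascending limb cells 676 (639 to 714) and proximal tubule cells 313 (309.6 to 317), each above the next when pooled, then endothelial cells 188 (181 to 196), while B lymphocytes had 15.5 (11.9 to 19.9). Tumor luminal cells had 317 (314 to 321) and basal cells 126 (97.3 to 159.999), the latter overlapping NK cells at 90.2 (64.4 to 123) and ahead of granulocytes at 11.5 (5.25 to 21.8). S100a1 was seen in 76.7% (25.8% thinned) of proximal tubule cells (median 6654 UMIs) against 4.88% (1.37% thinned) of B lymphocytes (median 3555), and in 84.7% (26.3% thinned) of luminal cells (median 9612) against 28.2% (4.35% thinned) of tumor T lymphocytes (median 6704). At equal depth proximal tubule and luminal cells thus stood above these lymphocytes, which does not extend to basal cells, at 54.3% (10% thinned), and tumor NK cells, at 37.9% (13.8% thinned).

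By library, S100a1 was at 384 (375 to 393), 285 (281 to 289.7) and 324 (316 to 332) CPM in proximal tubule cells and at 333 (326 to 339), 315 (309.7 to 321) and 301 (294 to 308) in luminal cells, with all ratios inside 1.5-fold. Proximal tubule cells gave 72.2%, 92.1% and 50.7% of its kidney UMIs and luminal cells 87.8%, 90.9% and 76.6% of its tumor UMIs. The lower S100a1 of the platform 60 min tumor library thus went with a smaller luminal share of cells. The high tubule share of the platform 15 min kidney library went with a level of S100a1 near the control when most other members fell.

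**Figure D3:**
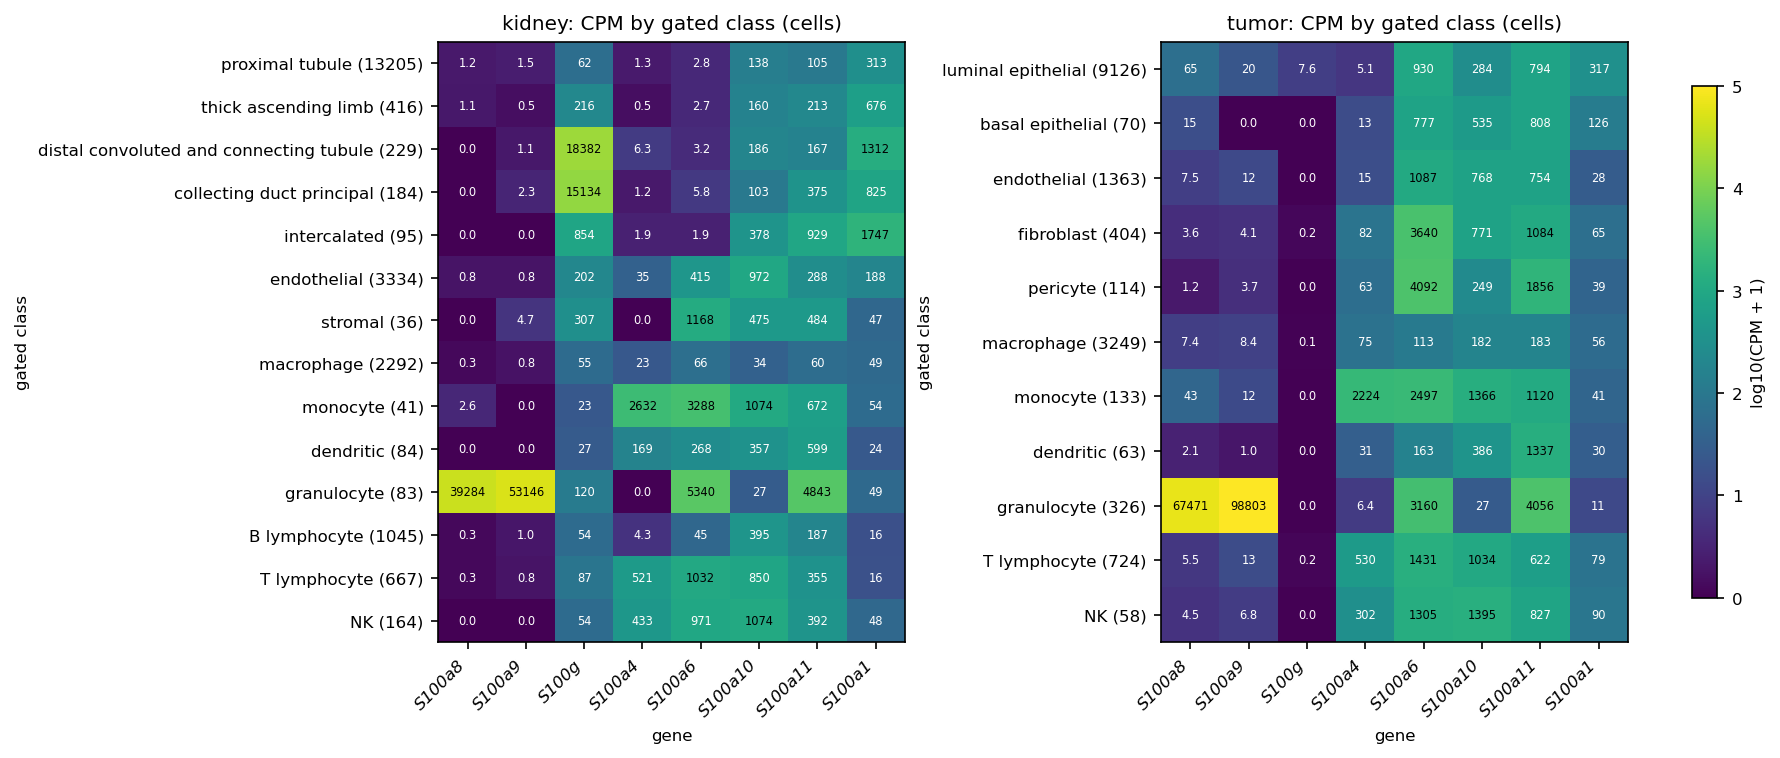
Level of each S100 gene in each marker-gated class, pooled over the libraries of a tissue, as a heatmap of log10 of CPM plus 1, with the CPM printed in each field. S100a8 and S100a9 peak in granulocytes, S100g in the distal kidney classes and S100a4 in monocytes, at 2632 in kidney and 2224 in tumor.

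Within classes, ratios were formed where each library had at least 100 cells: proximal tubule, endothelial cells, macrophages, B and T lymphocytes in kidney, and luminal cells, endothelial cells, macrophages and T lymphocytes in tumor. In kidney, 14 of 30 member and class pairs were at or past 1.5-fold at 15 min, 13 of them lower, where 23.1% of all 43191 gene and class pairs were. With each cell thinned to 1000 UMIs it was 5 of 22, where 27.5% of all pairs were. At 60 min it was 13 of 31, 6 higher and 7 lower, where 18.1% of all pairs were, and with thinning 6 of 26, 3 higher and 3 lower, where 23% of all pairs were. Without the cell of most UMIs in each library it was 8 of 30, and the share of all pairs was not computed for that choice. In tumor, 11 of 29 pairs were past the limit at 15 min, all lower, where 24.7% of all pairs were. With thinning it was 7 of 23, 5 lower and 2 higher (S100a10 in endothelial cells and S100a4 in T lymphocytes), where 26.5% of all pairs were. At 60 min in tumor it was 12 of 29, 11 of them lower, where 18.8% were, and with thinning 11 of 24, 7 lower and 4 higher (S100a4 in luminal cells and T lymphocytes, S100a1 in endothelial cells and S100a10 in T lymphocytes), where 23% were. With thinning the shares of members past the limit were thus near those of all pairs in kidney and in tumor at 15 min. At 15 min the median gene shifted by -0.22 on the log2 scale in kidney proximal tubule cells, 0.17 in endothelial cells, 0.12 in macrophages and 0.11 in B lymphocytes, and by 0.20, 0.10, 0.25 and 0.13 in the tumor classes. Relative to it, 15 and 12 kidney pairs and 12 and 12 tumor pairs were past the limit at 15 and 60 min. With that scaling, 23.1% and 17.7% of all kidney pairs and 21.3% and 18.1% of all tumor pairs were. The higher share of all tumor pairs past the limit at 15 min moved from 68.5% to 47.7%.

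In tumor, macrophages had the most members lower in the 60 min interval. At 60 min, 6 of 7 tested in macrophages were lower, where 8.41% of all genes tested in that class were lower and 12.3% higher: S100a9 at 0.103, S100a8 at 0.204, S100a4 at 0.522 (0.478 to 0.571), S100a6 at 0.531 (0.494 to 0.571), S100a10 at 0.539 (0.51 to 0.569) and S100a11 at 0.608 (0.575 to 0.643), while S100a1 was at 1.05 (0.944 to 1.17). With each cell thinned to 1000 UMIs, S100a11 was at 0.683 and inside the limit. At 15 min S100a8, S100a9 and S100a10 were past it, the last at 0.535 (0.50 to 0.571), where 8.53% of all genes in the class were lower. Kidney macrophages at 60 min had S100a4 at 0.505 (0.404 to 0.631), S100a6 at 0.522 (0.457 to 0.596) and S100a11 at 0.643 (0.56 to 0.739). With thinning the last was at 0.728 and inside the limit, as in tumor. The S100a4 UMIs of kidney macrophages lay in few cells, with 78.9% of 331 in 23 of 2292 cells. Without the cell of most UMIs in each library the ratio was 0.378 (0.29 to 0.491), and with thinning it was 0.24. S100a4 and S100a6 were thus lower in macrophages of both tissues in the platform 60 min interval. The monocyte marker list, whose genes share classes with S100a4 and S100a6, summed to 229, 338 and 212 CPM (6 of 6 markers seen in each library, most abundant Ms4a4c, Ccr2 and F13a1 by library) within tumor macrophages and 192, 258 and 133 CPM (5 of 6, 4 of 6 and 6 of 6 markers seen, most abundant Ccr2, at 0 Chil3 in the control library and Ly6c2, Vcan in the 15 min library) within kidney macrophages. The list was lower at 60 min than in the control, narrowly so in tumor, and highest at 15 min in both tissues. At 15 min S100a6 was below the control in macrophages of both tissues, and S100a4 in those of tumor. The part of the list was not tested. Macrophages numbered only 114 in the platform 15 min kidney library, where S100a4 had 1 UMI.

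**Figure D4:**
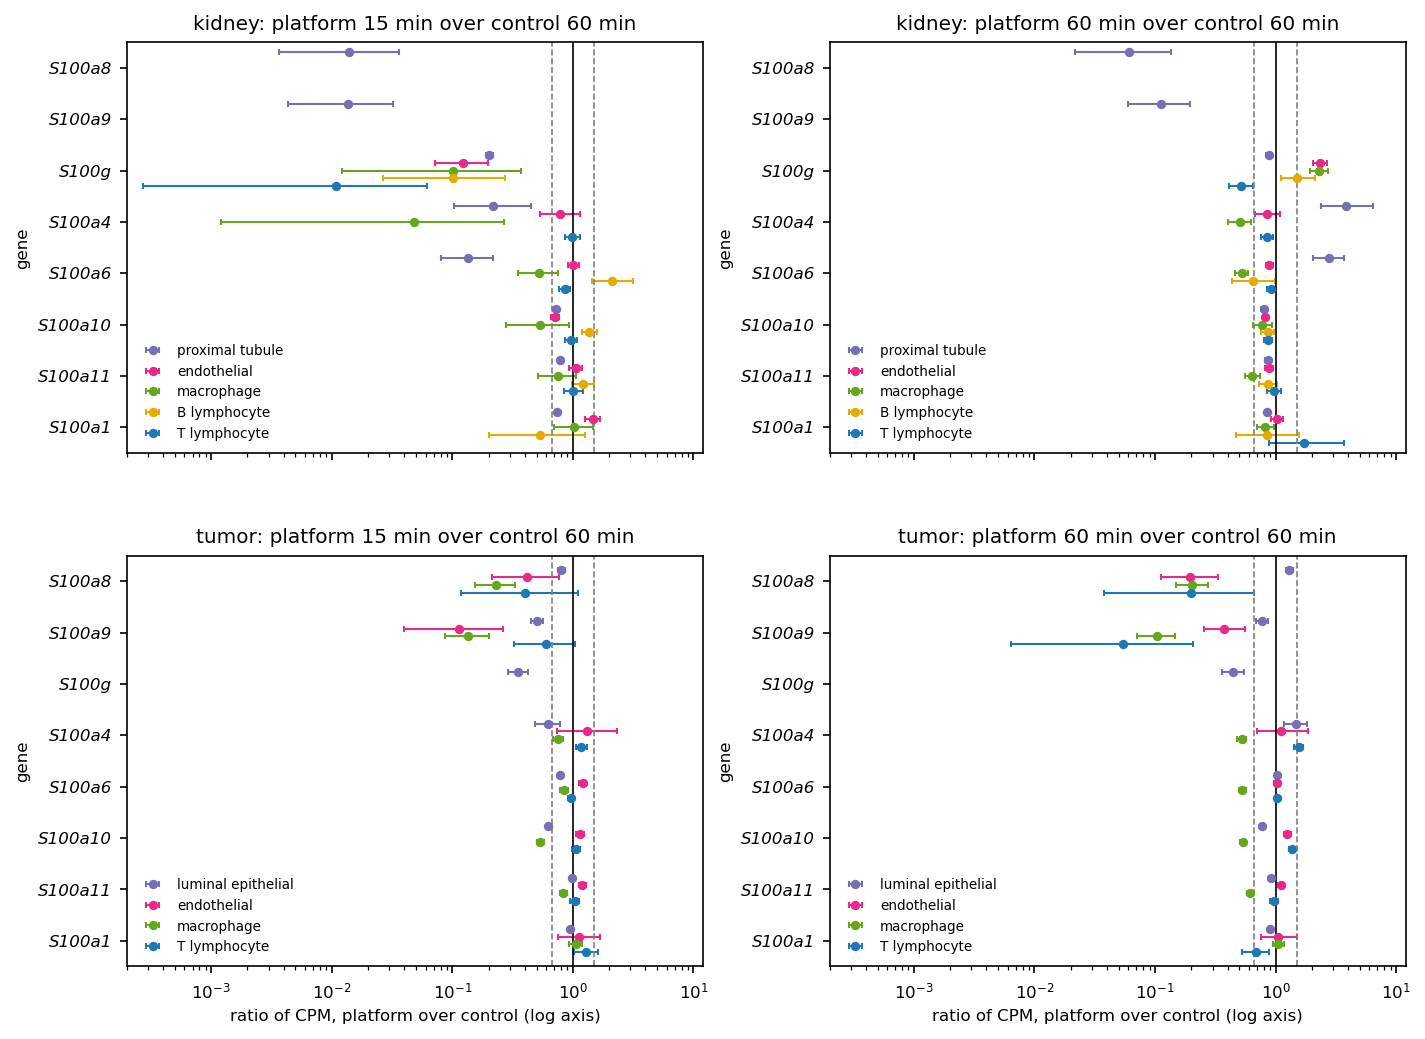
Ratio of platform to control for each S100 gene within each class that had at least 100 cells in every library, on a log axis, with conditional binomial 95% intervals and dashed lines at 1.5-fold either way. Tumor macrophages hold 6 of the 11 tumor values at or past the lower line at 60 min, with S100a10 at 0.539, and S100g in kidney lies far to the left at 15 min, at 0.203 in proximal tubule cells.

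The receptors and binders of the S100a8 and S100a9 proteins (Ager, Tlr4, Cd36, Cd33, Bsg, Cd69 and Emb) were mostly lower in the whole kidney library at 15 min, 5 of 7 with Bsg alone higher, where 42.4% of all genes were lower and 5.89% higher, at a median of 0.201. At 60 min, of 7 tested, 1 was higher (Cd69) and 1 lower (Ager), where 5.84% of all genes were lower and 25.4% higher, at 1.18. In tumor, again with 7 tested, 1 was higher (Tlr4) and 2 lower (Cd36 and Emb) at 15 min, where 7.82% of all genes were lower and 15.3% higher, at a median of 0.808. At 60 min 1 was higher (Cd36) and 0 lower, where 7.98% of all genes were lower and 15.2% higher, at 1.18. The 9 other S100 genes (S100a2, S100a3, S100a5, S100a7a, S100a13, S100a14, S100a16, S100b and S100z) were sparser, and their counts stand beside the same shares of all genes. Of 2 tested in kidney at 15 min, 1 was lower (S100a13), beside 42.4% of all genes, at a median of 0.611, and of 6 at 60 min, 4 were higher (S100a3, S100a7a, S100a13 and S100a14), beside 25.4% of all genes, at 1.72. In tumor 2 of 6 were lower at 15 min (S100a3 and S100a7a) and 3 of 6 at 60 min (these and S100b), beside 7.82% and 7.98% of all genes, at medians of 1.09 and 0.65. The members' own medians were 0.212 and 1.02 in kidney and 0.614 and 0.747 in tumor, and the all-gene medians were those given with the annexins. S100a13 stood at 98.8, 41 and 167 CPM in kidney and 175, 166 and 186 in tumor.

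For each member the genes most like it across class levels were ranked by Pearson's r over 12 kidney or 11 tumor classes. In kidney, S100g was closest to Calb1 (r = 0.99), a marker used for the classes, followed by Clu, Ptgfr, Pgam2 and Tox3. S100a8 and S100a9 were closest to Retnlg (r = 1.00 for both), also a class marker, and S100a8 next to Slfn4 and Il1f9. These values rest on the granulocyte class, and Spearman's rho with Retnlg was 0.72 for S100a8 and 0.49 for S100a9. S100a4 was closest to Cxcr3 (r = 0.95), Klrk1, Ccl5, Klrd1 and the class marker Ccr2, in a set of classes without the 41 monocytes. S100a1 was closest to Mthfd2l (r = 0.97), S100a6 to Cdc42ep3 (r = 0.98), S100a10 to Rwdd1 (r = 0.91) and S100a11 to Mfsd6 (r = 0.89). In tumor, S100a8 was closest to S100a9 (r = 0.98) and S100a9 to Cxcr2 (r = 0.99, rho = 0.69), a granulocyte marker of the gate, so that its likeness follows from how the class was made. S100a10 was closest to Cdv3 (r = 0.96), S100a1 to Tecr (r = 0.90), S100a4 to B4galt5 (r = 0.86), S100a11 to Txn1 (r = 0.86) and S100a6 to Elob (r = 0.80). S100g stayed under 100 CPM in every tumor class and was not ranked. Classes are not independent samples, and the rankings describe this set of classes.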

How the data were processed

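UMI counts per gene and cell of 3 kidney and 3 mammary tumor libraries (10x Genomics 3′ chemistry, 1 library per condition) were used as the authors deposited them. According to the submitters' processing notes, the authors made these counts with Cell Ranger 3.1.0 against mm10 and merged the runs of each tissue with Cell Ranger Aggr, a step that subsamples reads so that depth is similar, so part of the depth difference had already gone. Cells were assigned to libraries by the suffix of their barcode. Kidney cells with 200 to 3000 genes and at most 50% mitochondrial UMIs, and tumor cells with 200 to 4000 genes and at most 25%, were kept. The upper gene limit was the sole step against doublets, and no doublet caller was run.

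A cell entered a class when at least 3 of the class's 6 marker genes had a UMI and these led every other class by at least 2. Levels are summed UMIs scaled to CPM (UMIs of a gene over all UMIs of the kept cells of the library or class) with exact Poisson intervals. Ratios of platform to control have conditional binomial intervals and were formed for sums of at least 20 UMIs over both sides, and within classes of at least 100 cells in each library. A value at or past 1.5-fold either way was called, and no test was run. Classes of at least 20 cells were ordered by level, and shares of cells with a UMI were repeated with each cell thinned to 1000 UMIs (seed 1). Cells with fewer than 1000 UMIs were left out of all thinned shares and ratios, so these do not rest on the same cells as the values beside them. Likeness used log2 of CPM plus 10 over classes of at least 50 cells, for genes with at least 100 CPM in 1 class.

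The genes named are the 8 members and the genes of 4 lists: annexin and scaffold partners, receptors and binders of the S100a8 and S100a9 proteins, transcellular calcium transport, and the other S100 genes, with the 5 most like genes per member. The whole-library result of each list is printed, and results within classes only for some classes of the annexin and scaffold list. Rules and alternatives were written before the data were examined, but the members and lists were chosen with earlier results of these data known. Alternatives covered the limits on cells, the scaling, the weight of cells, depth, shared barcodes, low counts, the fold limit and the marker gate. Leaving out the cell with the most UMIs, or those with at least 10, and the split of cells by granulocyte markers, were chosen after seeing the data. Code was tested on simulated data. Python 3.11.15, NumPy 2.4.6, pandas 2.3.3, SciPy 1.17.1 and matplotlib 3.10.9 were used.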

Additional observations from a re-analysis of the deposited data

Results flagged for a closer look

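For 6 pairs of gene and kidney class, the ratio of platform to control was past 1.5-fold in opposite directions at 15 min and at 60 min. How many of all gene and class pairs did so was not counted. Of all kidney pairs, 23.1% were past the limit at 15 min and 18.1% at 60 min. S100g was at 0.123 and 2.35 in endothelial cells, 0.102 and 2.29 in macrophages, and 0.101 and 1.52 in B lymphocytes. In proximal tubule cells S100a4 was at 0.219 and 3.86, and S100a6 at 0.135 and 2.75. In B lymphocytes S100a6 was at 2.12 and 0.656. Not all of these held under other choices. Without the cell of most UMIs in each library, S100a6 in B lymphocytes was at 1.47 (0.875 to 2.47) and 0.872 (0.55 to 1.41), both inside the limit, and S100g in B lymphocytes at 60 min at 1.49 (1.05 to 2.13). With each cell thinned to 1000 UMIs, these 60 min values were 1.01 and 1.04. S100a6 in proximal tubule cells at 60 min was then at 1.72, and S100g at 15 min at 0.217 in macrophages and 0.0792 in endothelial cells. Without upper limits on genes and mitochondrial share, S100g in endothelial cells at 60 min turned to 0.698. With 1 library per condition these differences were not tested. Except for S100a6 in B lymphocytes, each pair was lower at 15 min and higher at 60 min. In tumor cells without a class, which no class comparison used, S100a10 was above its control level in the platform 60 min interval, at a ratio of 1.09, and this difference was not tested.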

How the results depend on the processing

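Of the calls made at 1.5-fold, 63 of 64 were kept when scaled without mitochondrial genes, 63 of 64 without cells of shared barcodes, 61 of 64 with median-of-ratios scaling, 57 of 64 with cells weighted equally, 54 of 64 without upper limits on genes and mitochondrial share, 35 of 44 with cells thinned to 1000 UMIs, 40 of 50 with the looser gate of 2 markers and a lead of 1, 40 of 46 with the stricter gate of 4 and 3, and 54 of 59 without the cell of most UMIs. Levels in leading classes under the other gates were 0.677 to 1.19 times those reported. Counts of member and class pairs moved by more than 1.5 times as follows. Thinning gave 5 in kidney at 15 min (14 as reported), 6 in kidney at 60 min (13) and 7 in tumor at 15 min (11), where 2 were higher in place of 0. The 2-fold limit gave 6 in kidney at 60 min, 6 in tumor at 15 min and 7 in tumor at 60 min (12), where 6.65%, 9.26% and 6.57% of all pairs were past it. A minimum of 100 UMIs gave 7 in tumor at 15 min, where 17.6% of all pairs were called. Leaving out the cell of most UMIs gave 8 in kidney at 60 min, with no share of all pairs computed. Fewer pairs reach the minimum after thinning or with 100 UMIs, and a higher limit admits fewer. Median-of-ratios scaling called 1 gene in the whole kidney library at 60 min in place of 0, where 28.4% of all genes were called. Among values past 1.5-fold as reported, directions reversed in these cases, all at 60 min in kidney unless stated. Without upper limits, S100g in endothelial cells was at 0.698 and S100a8 in tumor T lymphocytes at 15 min at 1.17. With thinning, S100a6 in B lymphocytes was at 1.01 and S100g in T lymphocytes at 1.14. With the looser gate, S100a8 and S100a9 in proximal tubule cells were at 4.24 and 5.98, and S100a1 in T lymphocytes at 0.997. With the stricter gate, S100a9 in proximal tubule cells was at 1.58, S100a6 in B lymphocytes at 1.07 and S100g in T lymphocytes at 1.58. Without the cell of most UMIs, S100a9 in proximal tubule cells was at 1.46 and S100g in T lymphocytes at 1.23. Some ratios inside 1.5-fold crossed 1 as well. Among them, with thinning, S100a8 in tumor luminal cells at 60 min was at 0.973 (1.3 as reported), S100g in the whole kidney library at 60 min at 0.96 (1.13) and S100a10 in the whole tumor library at 60 min at 1.18 (0.965). Apart from the effect of fewer pairs or a higher limit, the cause was not tested. No paired analysis was possible because each condition had 1 library. Depth limits values in small classes, such as the 9 kidney granulocytes at 15 min.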
